A study of Mus musculus with 8 samples.

Results

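The genes described here are the epidermal growth factor (EGF) receptor family and its ligands in the mouse kidney: the ligands Egf, Hbegf, Areg, Ereg, Tgfa and Btc and the receptors Egfr, Erbb2, Erbb3 and Erbb4. They were chosen by gene symbol, as 10 of the 55919 genes listed in the expression table, and each symbol matched 1 row. The study compared whole kidneys of wild-type (WT) mice with those of Tet1 knockout (KO) mice, with and without ischemia-reperfusion (I/R) injury. Tet1 encodes an enzyme that oxidizes 5-methylcytosine in DNA. All mice were female and of a C57BL/6 x 129S4/SvJae background, and their age was stated only as matched. The KO carried the Tet1tm1.1Jae allele in every tissue. In the I/R groups the left renal pedicle had been clamped for 45 min and the kidney was taken after 3 days of reperfusion (groups WT-I/R 3D and, for the knockout, KO-I/R 3D), while WT-NI and KO-NI kidneys were not injured. Both kidneys of a mouse were harvested on that day, and the sources used here do not state whether the non-injured kidneys came from the mice whose other kidney was clamped. Each group had 2 libraries, each made from the pooled RNA of 3 mice, so the spread between 2 pools stands for 6 mice and p-values measure only that spread.

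All members belong to a single signalling system. The ligands are made as membrane-anchored precursors, are cut free by metalloproteinases and bind the extracellular part of EGFR or ERBB4, which then pair with each other or with ERBB2 and ERBB3 and signal through the RAS-MAPK and PI3K pathways. Egf, Areg and Tgfa bind EGFR alone, whereas Hbegf, Btc and Ereg bind both EGFR and ERBB4. ERBB2 has no known ligand, and ERBB3 has little kinase activity of its own and binds neuregulins. In the kidney, EGF is made mainly by the thick ascending limb and the distal convoluted tubule and is shed into the urine, and EGFR signalling in proximal tubule cells is known to drive their proliferation after acute injury. HB-EGF is an inducible ligand of injured epithelia.

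Libraries held 13961281 to 18480858 reads on genes. The first KO-NI library had 10.9% of its reads on mitochondrial genes, against 4.76% to 7.70% in the other 7. Levels are given as FPKM, here fragments scaled to gene length and to a factor for each library that was not its total of reads. Tet1 itself was at 0.323 and 0.378 FPKM in WT-NI and at 0.382 and 0.551 in KO-NI. It was at 0.243 and 0.313 in WT-I/R 3D and at 0.158 and 0.189 in KO-I/R 3D, from 51 to 96 reads a library. The KO-NI libraries were thus not below WT-NI for Tet1, and a value over the whole gene does not check a deletion of part of it. Proximal tubule markers summed to 2936 to 3398 FPKM in the non-injured libraries, so the defining markers of kidney tissue were present. Injured-tubule markers summed to 1102 to 1217 FPKM in the non-injured libraries. The sums were 4516 to 7228 FPKM in WT-I/R 3D and 12088 to 13929 in KO-I/R 3D. Spp1 made up most of each sum, with a mean of 1064 FPKM in WT-NI, where Havcr1 had a mean of 0.228. All 8 injured-tubule markers were higher in both injury comparisons. Here and below, higher or lower as a call means that limma on log2(FPKM + 0.1) gave a log2 fold change beyond 0.5 in size with an adjusted p below 0.05.

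The members lie on 7 chromosomes of the GRCm38 build. Egf (ENSMUSG00000028017) is at chr3:129677565-129755316 on the minus strand. The ligand genes Ereg (chr5:91074622-91093646), Areg (ENSMUSG00000029378, chr5:91139599-91148432) and Btc (chr5:91357261-91402994) are neighbours within 328 kb of chromosome 5, with 46.0 kb between Ereg and Areg and 209 kb between Areg and Btc. Tgfa is at chr6:86195223-86275719 and Hbegf (ENSMUSG00000024486) lies on another chromosome. Among the receptors, Egfr (ENSMUSG00000020122) is at chr11:16752203-16918158 and Erbb2 at chr11:98412470-98437716 on the same chromosome, Erbb3 is at chr10:128567523-128589652, and Erbb4 spans 1076 kb at chr1:68032186-69108059. Parts of the Egf exons, 500 bases (4.43%) and 607 bases (5.38%), are shared with the opposite-strand genes 6330410L21Rik and Gm42697. The libraries were not stated to keep strand, so reads there cannot be told apart, and the whole-gene levels of these neighbours were 0.0993 to 0.793 and 0.0561 to 0.693 FPKM.

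RefSeq promoter entries were found for 7 of the 10 members, and the upstream sequence of the most abundant ligand is shown beside that of Areg, a ligand with reads only after injury, because Tet1 acts on methylated CpG sites. The 250 bases before each start are written in the direction of the gene, with CpG dinucleotides in capitals. The window of Egf is chr3:129755323-129755572, minus strand, and that of Areg is chr5:91139349-91139598, plus strand, both in GRCm38.p6.
Egf: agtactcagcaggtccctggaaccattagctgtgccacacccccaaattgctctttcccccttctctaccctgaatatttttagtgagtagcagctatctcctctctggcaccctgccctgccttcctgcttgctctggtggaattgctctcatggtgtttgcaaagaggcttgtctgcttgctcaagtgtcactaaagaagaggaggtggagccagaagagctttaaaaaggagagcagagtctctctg
Areg: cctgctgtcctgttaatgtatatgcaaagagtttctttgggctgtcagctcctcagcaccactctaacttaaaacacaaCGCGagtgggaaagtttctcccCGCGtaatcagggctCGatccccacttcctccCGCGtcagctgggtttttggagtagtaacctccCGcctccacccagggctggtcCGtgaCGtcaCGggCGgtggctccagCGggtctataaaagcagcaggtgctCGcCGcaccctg
The Egf window holds 0 CpG sites and the Areg window 15, against a median of 6 over 32851 windows of the same length. A second RefSeq start of Egf, within the gene, has 15 CpG sites in its window (chr3:129725087-129725336). The other windows hold 19 (Tgfa), 4 (Btc), 11 (Egfr), 16 (Erbb2) and 12 (Erbb4). Searched on both strands, the cyclic AMP response element TGACGTCA was found once in the Areg window, at -61 to -54 from the start, and TATAAA at -31 to -26. Of all windows, 1.55% hold the first motif and 12.4% the second. The AP-1 motif TGACTCA, held by 4.46% of windows, was in none of the members' windows, and the TEAD motif GGAATG, held by 12.6%, was in that of Erbb2, at -88 to -83. DNA methylation was not measured in these libraries, and a match of letters is a description only.

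In the non-injured kidney, Egf was the most abundant of the 10 members. Its level per length was 258 and 284 FPKM in WT-NI and 311 and 244 FPKM in KO-NI. On the same scale, the other 5 ligands summed to 6.14 to 9.50 FPKM, and Egf made up 97.0% to 97.8% of the ligand sum. Among the receptors, Erbb2 (23.9 ± 1.96 FPKM in WT-NI, SD, n = 2) and Erbb3 (22.0 ± 1.09) did not differ beyond their spread, and Egfr (5.96 ± 0.274) and Erbb4 (2.66 ± 0.121) were lower. Hbegf was at 3.21 ± 0.0445 FPKM, Btc at 2.26 ± 0.444 and Tgfa at 1.40 ± 0.00515. Areg and Ereg had 0 reads in all 4 non-injured libraries, and 3 reads, the limit that a count of 0 allows, would be 0.172 to 0.219 FPKM for Areg and 0.0506 to 0.0644 FPKM for Ereg in those libraries.

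**Figure D1:**
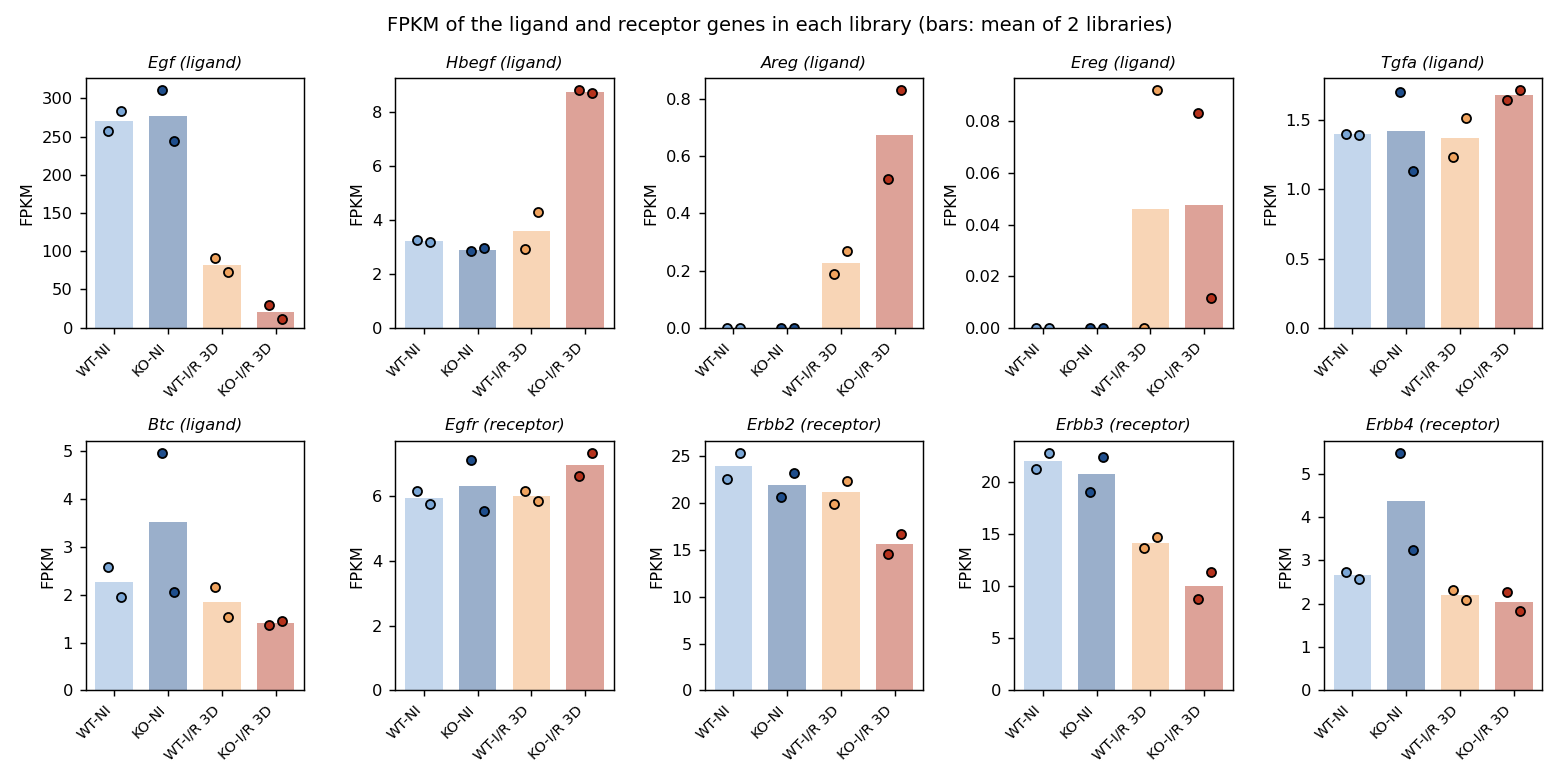
FPKM of each of the 10 members in the 8 libraries, with 1 point per library, bars at the mean of the 2 libraries of a group, and an axis of its own from 0 for each gene. Egf lies between 244 and 311 FPKM in the 4 non-injured libraries and between 11.8 and 90.5 in the 4 injured libraries, while Hbegf lies above 8 FPKM only in the KO-I/R 3D libraries.

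The first question of the design is what injury did in WT kidneys. Egf fell and so did Erbb3, the neuregulin receptor, while none of the 8 tested members rose; Areg, which was below the filter on low values, is described further on. Of the 8 members that passed the filter on low values (Areg and Ereg did not), 0 were called higher, against 8.9% of all 15650 genes tested, and 2 were called lower, against 8.45% (17.3% in either direction). Both injured libraries were above both WT-NI libraries for 0 members, against 34.5% of all genes, and below them for 4, against 37.6%. The members' median log2 fold change was -0.22, beside -0.01 over all genes.

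Egf was at 90.5 and 72.8 FPKM in the WT-I/R 3D libraries, below both WT-NI libraries. The mean fell from 271 ± 18.3 to 81.7 ± 12.5 FPKM (SD, n = 2 libraries each), 3.33-fold lower, with a log2 fold change of -1.73 (SE 0.39) and an adjusted p of 0.0253 in limma. In bulk tissue, fewer cells of the type that makes a transcript and less of the transcript per cell cannot be told apart. Erbb3 was at 13.6 and 14.7 FPKM after injury and at 21.2 and 22.8 without it, a log2 fold change of -0.63 (SE 0.16, adjusted p = 0.0366 by limma). Both calls were lost when any of the 4 libraries of the comparison was left out. Each such fit has 1 library in a group, and far fewer of all genes were called lower than the 8.45% with all libraries. The log2 fold changes were then -1.89 to -1.58 for Egf and -0.68 to -0.58 for Erbb3. With no filter on low values both calls were also lost (adjusted p = 0.0558 and 0.0625 by limma), beside 2.95% of all genes called lower. The call of Erbb3 was lost on the TPM scale (0.166, beside 3.41%) and without a variance trend (0.0587, beside 7.34%).

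The other members did not pass the test in WT kidneys. Hbegf was at 2.92 and 4.28 FPKM after injury, on either side of the WT-NI values of 3.24 and 3.17, and its log2 fold change of 0.14 had a 95% interval of -0.31 to 0.58. Egfr was at 6.17 and 5.85 FPKM against 6.15 and 5.77 without injury, with an interval of -0.35 to 0.37 around 0.01. The groups of Hbegf and Egfr overlapped. Erbb2 (-0.18), Erbb4 (-0.26), Btc (-0.28) and Tgfa (-0.03) had adjusted p-values of 0.399 to 0.947 in limma.

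In KO kidneys, injury moved the ligands in opposite directions. Egf fell 14.8-fold and Hbegf, the inducible ligand, rose 2.96-fold. Erbb3 and Erbb4 fell as well. In all, 1 member was called higher, against 17.9% of all genes tested, and 3 were called lower, against 19.4%. With 4 of 8 members called beside 37.4% of all genes, the share of members called was near the background. Both injured libraries were above both KO-NI libraries for 1 member, against 32.5% of all genes, and below them for 5, against 34.9%.

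Egf was at 29.1 and 11.8 FPKM in the KO-I/R 3D libraries, far below the 311 and 244 FPKM of KO-NI, and these 2 values were themselves 2.46-fold apart. The log2 fold change was -3.89 (SE 0.39, adjusted p = 0.000712 by limma), and it was -4.53 without the first KO-I/R 3D library and -3.24 without the second. Hbegf was at 8.79 and 8.68 FPKM, against 2.82 and 2.94 in KO-NI. Its groups did not overlap, and its log2 fold change was 1.57 (SE 0.19, adjusted p = 0.00118 by limma). Both calls, and that of Erbb3, were made under all 15 alternative settings.

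Erbb3 was at 8.74 and 11.3 FPKM after injury in KO kidneys, against 19.1 and 22.4 without it (log2 fold change -1.04, SE 0.16, adjusted p = 0.00283 by limma). Erbb4, which binds both HB-EGF and the neuregulins, was at 2.27 and 1.83 FPKM, against 5.48 and 3.24 in KO-NI (log2 fold change -1.01, SE 0.26, adjusted p = 0.0197 by limma). The first KO-NI library, with the highest mitochondrial share, had the highest Erbb4 level of all 8 libraries. Without it, the call of Erbb4 in KO kidneys remained, whereas without the second KO-I/R 3D library the adjusted p was 0.116 and the log2 fold change -0.87. The adjusted p was 0.0751 in a fit to the 4 KO libraries alone and 0.0689 on the TPM scale.

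Erbb2, the receptor without a ligand, was at 14.6 and 16.7 FPKM in KO-I/R 3D and at 20.7 and 23.2 in KO-NI. Its log2 fold change of -0.49 (SE 0.14) had an adjusted p of 0.0276 in limma but did not reach the fold threshold; without the first KO-NI library it was -0.57 (adjusted p = 0.0226) and was called, beside 19.1% of all genes called lower. Btc was at 1.37 and 1.46 FPKM, below both KO-NI values of 4.96 and 2.06. Its log2 fold change of -1.13 had an adjusted p of 0.0608, and it depended on the KO-NI libraries. Without the first it was -0.52 (adjusted p = 0.199), and without the second it was -1.74 (adjusted p = 0.00344), a call beside 23.4% of all genes called lower. Tgfa (0.25) did not pass the test.

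Egfr, the receptor that all 6 ligands share, was at 6.62 and 7.34 FPKM in KO-I/R 3D and at 7.12 and 5.54 in KO-NI. The groups overlapped, and the log2 fold change of 0.15 had a 95% interval of -0.21 to 0.51. This value depended on the scaling. When the FPKM of each library were rescaled to a common sum (TPM), the median log2 fold change of all genes in KO kidneys shifted by 0.40, and Egfr was called higher (0.55, adjusted p = 0.0203 by limma), about the shift itself. The calls among members then were 3 higher (Hbegf, Egfr and Areg) and 2 lower (Egf and Erbb3), in place of 1 and 3, beside 29% of all genes called higher and 8.42% lower on that scale.

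**Figure D2:**
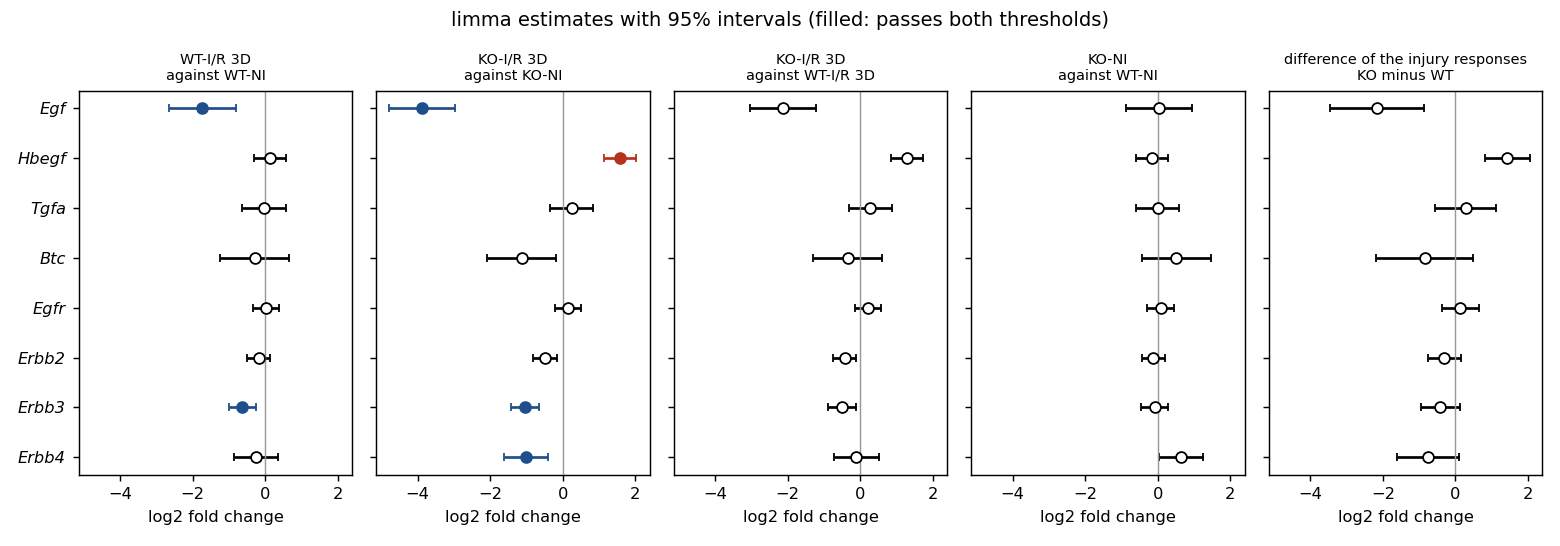
Log2 fold change of the 8 tested members in each of 4 comparisons and for the difference of the injury responses, with 95% intervals from limma as bars and filled points for calls. Egf lies below 0 in both injury comparisons (-1.73 in WT and -3.89 in KO) and Hbegf lies above 0 in KO kidneys (1.57), while the interval of Egfr spans 0 in all panels.

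Comparing the injured kidneys of both genotypes with each other, Hbegf was 2.43-fold higher in the KO libraries and Egf was 4.36-fold lower, but neither passed the test after adjustment. No member was called in either direction, and 0% of all 15650 genes were called higher and 0% lower; at an unadjusted p under 0.05, limma gave 1 member higher (Hbegf) and 3 lower (Egf, Erbb2 and Erbb3), and 878 genes higher and 1776 lower overall. Hbegf had 8.79 and 8.68 FPKM against 2.92 and 4.28 (log2 fold change 1.28, SE 0.19, adjusted p = 0.0862). Egf had 29.1 and 11.8 FPKM against 90.5 and 72.8 (log2 fold change -2.13, SE 0.39, adjusted p = 0.0916). Both KO-I/R 3D libraries were above both WT-I/R 3D libraries for 3 members (Hbegf, Tgfa and Egfr), against 28% of all genes. They were below them for 4 (Egf, Btc, Erbb2 and Erbb3), against 29.5%.

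On reads recovered from the FPKM values, limma voom called both Egf (-2.12, adjusted p = 0.0235) and Hbegf (1.31, adjusted p = 0.0235), beside 0.471% of 18252 genes called higher and 1.63% called lower. Over all 15 alternatives, Egf was called in 4, with adjusted p-values of 0.0235 to 0.569, and Hbegf in 3. Leaving out either KO-NI library, which is not part of this comparison but adds to the pooled spread, gave calls of Egf (0.0456 and 0.0447) and of Hbegf (0.0342 and 0.0332). Beside them, 0.705% and 0.716% of all genes were called higher and 3.53% and 3.55% lower. Egf depended on which KO-I/R 3D library was kept: it was at -2.77 without the first (adjusted p = 0.0490, beside 0.0974% of all genes called lower) and at -1.48 without the second (adjusted p = 0.405). The receptors differed less: Erbb2 was 0.43 lower and Erbb3 0.50 lower in KO-I/R 3D on the log2 scale, with SEs of 0.14 and 0.16 and adjusted p-values of 0.190 and 0.194. Egfr (0.21, interval -0.15 to 0.57), Erbb4 (-0.11), Tgfa (0.28) and Btc (-0.34) had adjusted p-values of 0.525 to 0.866.

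The difference between the 2 injury responses, tested as an interaction, was 1.43 for Hbegf (SE 0.26) and -2.15 for Egf (SE 0.55) on the log2 scale, each with an adjusted p of 0.390 in limma. With a library left out, that of Egf ranged from -2.80 (without the first KO-I/R 3D library) to -1.50 (without the second). The interaction called 0% of genes higher and 0% lower, and voom also called 0. At an unadjusted p under 0.05 it gave 1 member higher (Hbegf) and 1 lower (Egf), and 563 and 1004 genes overall. A different response of these ligands in KO kidneys was therefore not shown after adjustment.

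Without injury, the genotypes did not differ in any member by the test: 0 members were called, beside 0% of all genes higher and 0% lower. Egf differed by 0.03 on the log2 scale (adjusted p = 0.985 by limma). At an unadjusted p under 0.05, 1 member was higher in KO-NI, Erbb4 (0.65, adjusted p = 0.688), and 351 genes were higher and 525 lower overall. Erbb4 was at 5.48 and 3.24 FPKM in KO-NI and at 2.74 and 2.57 in WT-NI, so that both KO-NI values were above both WT-NI values, as for 17.7% of all genes, and Hbegf was lower in both, as for 17.2%. Btc was at 4.96 and 2.06 FPKM, against 2.57 and 1.94, and its groups overlapped. Its first KO-NI library stood out, as for Erbb4, and without the second KO-NI library the remaining one gave calls of Erbb4 (1.02, adjusted p = 0.0256) and Btc (1.12, adjusted p = 0.0460), beside 5% of all genes called higher and 9.31% lower. That fit has 1 KO-NI library, whose spread is assumed to be that of the other groups. Without the first KO-NI library, 0 members were called, Erbb4 was at 0.28 and Btc at -0.11. The part of the mitochondrial share of that library in these values was not tested.

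**Figure D3:**
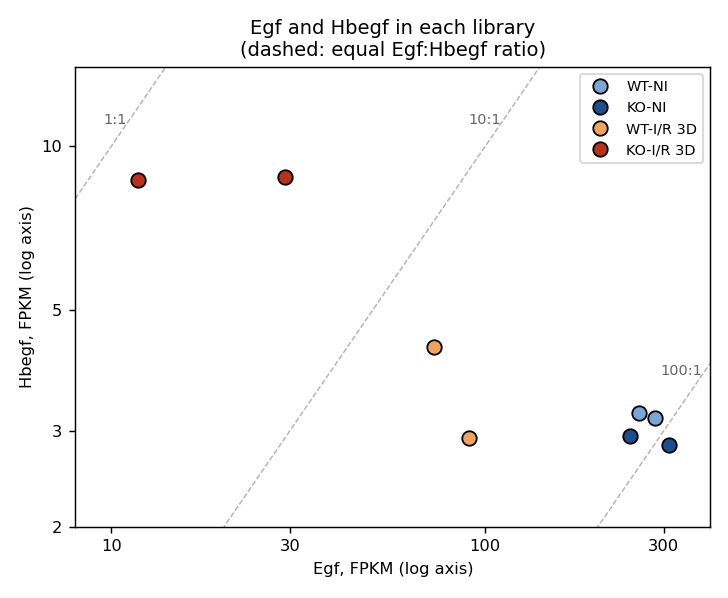
Egf and Hbegf in FPKM on log axes, with 1 point per library, coloured by group, and dashed lines of equal Egf to Hbegf ratio. The ratio is 79.6 to 110 in the non-injured libraries, 17.0 and 31.1 in WT-I/R 3D, and 1.36 and 3.31 in KO-I/R 3D.

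The make-up of the ligand and receptor pools is given by library, without a test. Of the summed ligand FPKM, Egf made up 93.3% and 90.5% in WT-I/R 3D, and 70.1% and 48.2% in KO-I/R 3D. Every injured library was below the 97.0% to 97.8% of the non-injured libraries. The ratio of Egf to Hbegf was 31.1 and 17.0 in WT-I/R 3D, and 3.31 and 1.36 in KO-I/R 3D. The ligand sum was 250 to 320 FPKM without injury, 97.0 and 80.5 in WT-I/R 3D and 41.5 and 24.5 in KO-I/R 3D. Without Egf, the ligand sum was 6.50 and 7.68 FPKM in WT-I/R 3D, within the non-injured range of 6.14 to 9.50, and 12.4 and 12.7 in KO-I/R 3D, above it. The receptor sum was 52.3 to 56.4 FPKM without injury, 42.0 and 45.0 in WT-I/R 3D and 32.2 and 37.2 in KO-I/R 3D. Egfr made up 10.2% to 13.6% of the receptor sum without injury, 14.7% and 13.0% in WT-I/R 3D, and 20.6% and 19.7% in KO-I/R 3D, where Erbb3 was called lower and Egfr was not called. These shares are of RNA and not of protein.

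Areg, the ligand amphiregulin, was detected only in injured kidneys. In WT-I/R 3D it had 4 and 6 reads (0.187 and 0.268 FPKM), and in KO-I/R 3D 11 and 21 (0.519 and 0.830 FPKM), against 0 in the 4 non-injured libraries. The mean was 1.31 times the level of 3 reads per non-injured library in WT-I/R 3D, and 3.38 times that level in KO-I/R 3D. These ratios leave out the counting error of the few reads after injury, so they are not lower bounds of a fold change. Areg did not pass the filter on low values. With no filter it was called higher in WT (adjusted p = 0.0373) and KO kidneys (adjusted p = 0.00295) by limma, beside 3.75% and 9.96% of all genes called higher, and voom on recovered reads also called both (0.0259 and 0.00136), beside 10.8% and 20% of all genes called higher by voom; in WT kidneys the TPM scale gave 0.0538. Between the injured groups its adjusted p was 0.183 to 0.355 under the 3 settings that tested it. Ereg, the ligand epiregulin, had 0 and 7 reads in WT-I/R 3D and 6 and 1 in KO-I/R 3D. Its groups overlapped, and its level was too near the limit of detection for a fold change.

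Egf is a product of the distal nephron, so its values are given beside the markers of the segments that make it. The 6 thick ascending limb markers summed to 2208 to 2534 FPKM in WT-NI, 2562 to 2927 in KO-NI, 1888 to 1967 in WT-I/R 3D and 1048 to 1326 in KO-I/R 3D. Of these, 0 were called lower in WT kidneys and 1, Cldn19, was called higher, while 4 were called lower in KO kidneys. Beside them, 8.45% of all genes were called lower and 8.9% higher in WT, and 19.4% were called lower in KO kidneys. The 5 distal convoluted tubule markers summed to 561 to 600 FPKM without injury, 258 to 279 in WT-I/R 3D and 121 to 185 in KO-I/R 3D, and 3 were called lower in WT and all 5 in KO kidneys. Umod made up most of the thick ascending limb sum, with a mean of 1830 FPKM in WT-NI. Every marker of both lists was detected in every group.

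Egf had larger log2 fold changes than the leading marker of either segment. Umod, the uromodulin gene of the thick ascending limb, had a log2 fold change of -0.25 in WT (adjusted p = 0.377) and fell by 1.04 in KO kidneys (adjusted p = 0.00472). Slc12a3, the sodium-chloride cotransporter of the distal convoluted tubule, fell by 1.12 in WT (adjusted p = 0.0128) and by 1.67 in KO kidneys (adjusted p = 0.00114, all by limma). The ratio of Egf to Umod was 0.121 to 0.152 in the non-injured libraries, 0.0623 and 0.0451 in WT-I/R 3D, and 0.0266 and 0.0132 in KO-I/R 3D. The ratio of Egf to Slc12a3 was 0.854 to 1.21, then 0.657 and 0.561, and then 0.288 and 0.176. Both ratios were lower in every injured library than in every non-injured library, and these differences were not tested. Umod and Slc12a3 fell less than Egf, which fell by 1.73 in WT and 3.89 in KO kidneys, and other markers were closer to it. Calb1, which encodes a calcium-binding protein of the distal tubule, fell by 1.74 in WT and 2.95 in KO kidneys. In WT kidneys Egf thus did not fall more than Calb1. Pvalb fell by 3.19 in KO kidneys. Of the thick ascending limb markers, Ptger3 fell by 2.33, Slc12a1 by 2.10 and Kcnj1 by 1.75 in KO kidneys, while none of these 3 was called in WT (-0.55, -0.50 and -0.55). Cldn16, a claudin gene of the thick ascending limb, was at -0.03 in WT and -0.01 in KO kidneys, so the markers of these segments moved unequally. The part of these segments in the Egf values was not tested.

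**Figure D4:**
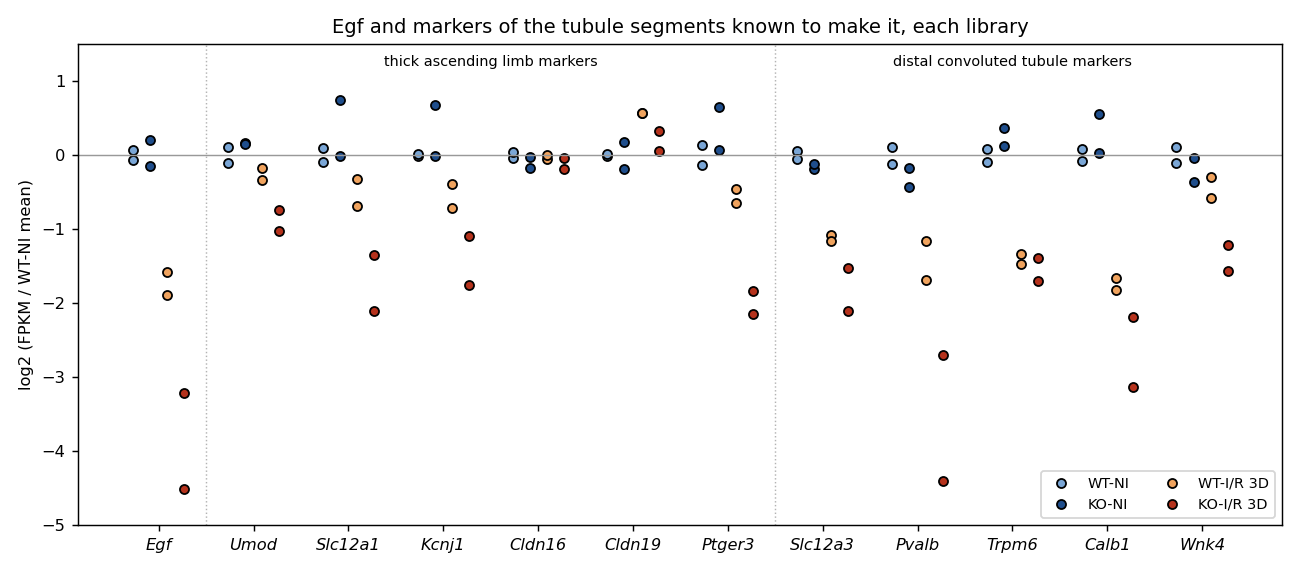
Log2 ratio of the FPKM in each library to the WT-NI mean, for Egf, 6 thick ascending limb markers and 5 distal convoluted tubule markers, with 1 point per library, coloured by group. The KO-I/R 3D points of Egf lie below those of Umod and Slc12a3, those of Pvalb spread down to a similar level, and those of Cldn16 stay near 0.

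Hbegf is made by several cell types, and marker sums of 3 of them are given beside it. The sums of injured-tubule markers were highest in KO-I/R 3D, as given above. Macrophage markers summed to 52.7 to 71.0 FPKM without injury, 429 to 478 in WT-I/R 3D and 490 to 759 in KO-I/R 3D, and fibroblast markers to 34.3 to 44.5, then 194 to 226 and then 246 to 309. Hbegf was called higher in KO kidneys and was not called in WT kidneys. All 3 sums were higher in both injured groups than without injury, and highest in KO-I/R 3D. Their part in the Hbegf values was not tested.

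Among other protein-coding genes with a mean of at least 5 FPKM, those most like Egf over the 8 libraries were Fads6 (Pearson r = 0.999), Fam151a (0.998), Acsm1, C8a and Ppif (0.997 each). With 18.7% of these genes above 0.9, the pattern of Egf was a common one. The genes most like Hbegf were Gnl3 (0.977), which encodes nucleostemin, Tars (0.968), Chmp2b and Cdv3 (0.960 each) and Irgm1 (0.958), and 1.21% of genes were above 0.9. For Egfr they were Taf13 (0.951), Nfat5 (0.948), Prkx (0.944), Cnbp (0.940) and Farsb (0.935), with 0.235% above 0.9. The points share libraries and group structure, so these correlations are descriptions only.

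The rest of the pathway was taken from a list of 78 genes by role, of which 71 were tested. In WT kidneys 7 were called higher, 9 lower and 55 not, and in KO kidneys 16 were higher, 15 lower and 40 not. That is beside the 8.9% and 8.45% of all genes in WT and the 17.9% and 19.4% in KO kidneys, and the list's median log2 fold change was -0.04 in WT and 0.05 in KO kidneys against -0.01 in both over all genes. The split in KO kidneys depended on the scaling: on the TPM scale it was 31 higher and 6 lower, where 29% of all genes were called higher and 8.42% lower. Between the injured groups 0 were called, with 7 higher and 4 lower at an unadjusted p under 0.05, a smallest adjusted p of 0.110 and 1 called in each direction by voom. Between the non-injured groups 0 were called, with 0 higher and 1 lower at an unadjusted p under 0.05.

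Of 10 tested genes that act on ligand shedding, 4 rose and 2 fell in WT kidneys, beside 8.9% and 8.45% of all genes. The same 6 genes did so in KO kidneys, beside 17.9% and 19.4% of all genes. The macrophage and fibroblast markers, whose sums are given above, were also higher in these libraries, and their part in the shedding genes was not tested. Those that rose were the metalloproteinases Adam12 (2.01 in WT and 2.41 in KO on the log2 scale), Adam8 (3.07 and 3.66) and Adam19 (1.42 and 2.29), and Rhbdf2 (0.78 and 1.51), which encodes iRhom2, a partner that ADAM17 needs to mature and is named as the remaining gene that rose. Timp3, which encodes the tissue inhibitor of ADAM17, fell by 1.68 in WT and by 2.40 in KO kidneys. Its level was 152 to 189 FPKM in the non-injured libraries, 48.2 and 59.9 in WT-I/R 3D and 27.2 and 34.1 in KO-I/R 3D, with no overlap between injured and non-injured libraries. Adam9 fell by 0.74 and 0.95. Adam10, the main sheddase of EGF and betacellulin in mouse cells, was not called (0.09 and 0.21), nor was Rhbdf1 (0.16 and 0.49), nor Adam17 (0.12 and 0.23), which sheds most of the other ligands and was chosen for its role after its values were seen.

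Nrg1, the neuregulin ligand of ERBB3 and ERBB4, was the only other ligand that passed the filter. It was at 0.548 to 0.695 FPKM without injury, at 1.05 and 1.62 in WT-I/R 3D and at 2.09 and 3.54 in KO-I/R 3D. It rose in KO kidneys (1.98, adjusted p = 0.00485 by limma) and was not called in WT (0.93, adjusted p = 0.111) or between the injured groups (1.01, adjusted p = 0.221). Its receptor Erbb3 fell in both genotypes, as given above. Nrg4, Nrg2 and Epgn were below the filter, and Nrg3 had 0 reads in all libraries.

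Below the receptors, 29 adaptors and kinases of the RAS, MAPK and PI3K arms were tested. In WT kidneys 0 rose and 2 fell, beside 8.9% and 8.45% of all genes. In KO kidneys 3 rose and 6 fell, beside 17.9% and 19.4% of all genes. The exchange factor Sos2 fell by 0.79 in WT and 1.17 in KO kidneys, and the docking protein Gab1 fell by 0.54 and 0.90. In KO kidneys, Stat5b fell by 0.64 and Nras rose (0.94). Mapk3 (0.36) and Akt1 (0.35) had high levels and were not called in KO kidneys, nor were Mapk3 (0.16) and Grb7 (-0.15) in WT kidneys.

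Of 20 inhibitors and feedback regulators of the pathway, 0 rose and 3 fell in WT kidneys, beside 8.9% and 8.45% of all genes. In KO kidneys 2 rose and 5 fell, beside 17.9% and 19.4% of all genes. Errfi1, which encodes MIG6, a direct inhibitor of the EGFR kinase, had 204 and 231 FPKM in WT-NI and 107 and 119 in WT-I/R 3D, and fell by 0.95 in WT (adjusted p = 0.00619 by limma) and by 0.77 in KO kidneys (adjusted p = 0.00375). Lrig1, which promotes receptor degradation, fell by 0.52 and 0.74. Spred2, an inhibitor of RAS-MAPK signalling, fell by 0.70 and 0.83, and Lrig3 fell by 0.93 in KO kidneys. Dusp5 (2.33), an ERK phosphatase, and Spry1 (0.73) were the 2 that rose in KO kidneys. Dusp6 (-0.26 in WT and -0.45 in KO kidneys) and Ptpn1 (0.01 and 0.12) had the highest levels of those not called.

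Of 11 early-response and ETS genes tested, 3 rose and 2 fell in WT kidneys, beside 8.9% and 8.45% of all genes. In KO kidneys 6 rose and 2 fell, beside 17.9% and 19.4% of all genes. Myc was at 2.12 to 2.55 FPKM without injury, at 6.48 and 10.3 in WT-I/R 3D and at 14.2 and 18.3 in KO-I/R 3D, and it rose in both genotypes (1.77 and 2.74). Plaur, the urokinase receptor gene, rose by 1.69 and 2.97. Ccnd1, which encodes cyclin D1, fell by 1.11 and 1.49, and Etv5 fell by 1.15 and 1.26. Of those not called, Ier3 (-0.46) and Junb (1.44) had the highest levels in WT kidneys, and Ier3 (0.57) and Egr1 (2.27) in KO kidneys. Members of this list therefore moved both ways in the same libraries, and each of them responds to other pathways as well.

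**Figure D5:**
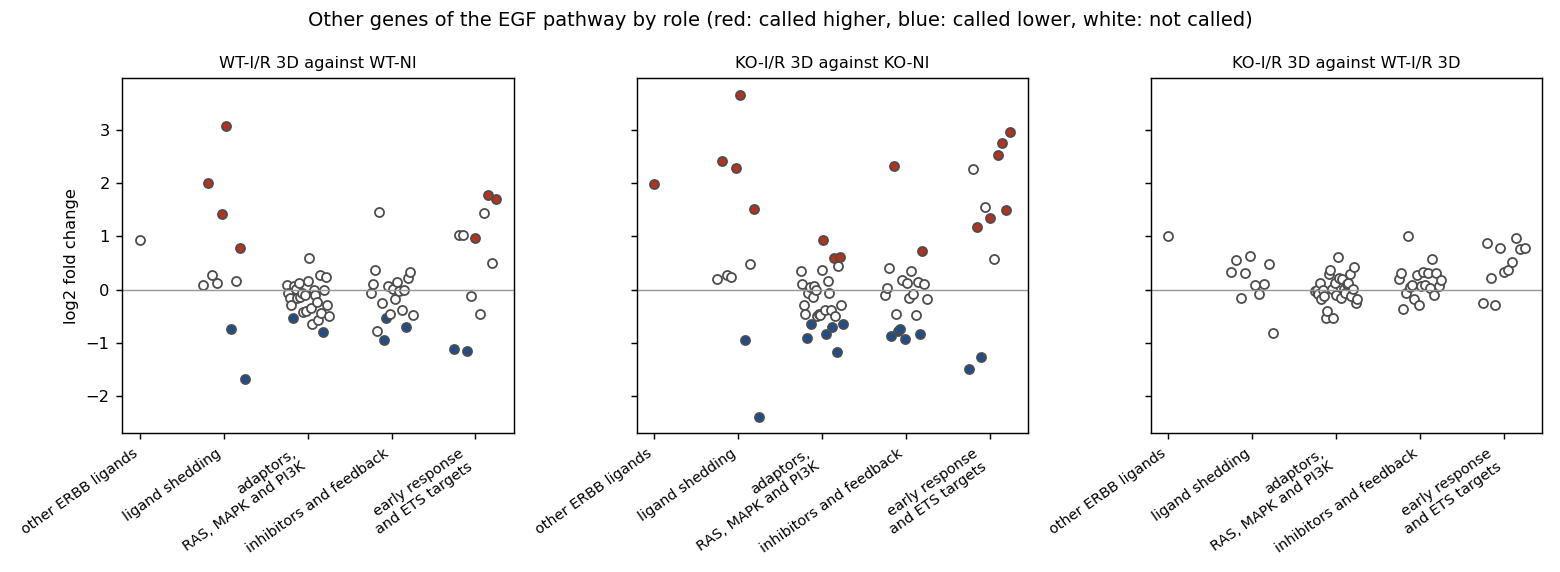
Log2 fold changes of the other pathway genes by role, with 1 point per tested gene, in both injury comparisons and between the injured groups, with called genes in red (higher) or blue (lower). Called genes number 7 higher and 9 lower in WT kidneys, 16 higher and 15 lower in KO kidneys, and 0 between the injured groups.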

How the data were processed

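RNA sequencing of 8 pooled poly-A libraries of mouse kidney was analysed, 2 in each of 4 groups. The authors aligned reads with HISAT2 2.0.5 to GRCm38.p6 (mm10), per the submitters' processing notes, and deposited FPKM values per gene; the program used for counting was not given. Positions of the members in the deposited table differ from that build, so those of GENCODE for GRCm38 are printed. Whole reads were recovered from FPKM and gene length for 100% of values (tolerance 0.001 reads). The authors' per-million divisor was 0.808 to 0.886 of the library total in the non-injured libraries and 1.04 to 1.13 in the injured libraries. Relative to size factors from median ratios of reads between libraries, it was 0.995 to 1.004, with both centred over the libraries. Reads were 13961281 to 18480858 a library, which limits the precision for low genes.

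Log2(FPKM + 0.1) was fitted with limma 3.58.1 (R 4.3.3) on 4 group means, with a variance trend, for the 15650 genes that reached 1 FPKM in 2 or more libraries, and p-values were adjusted by the Benjamini-Hochberg method over all of them. The pseudocount makes fold changes of low genes too small. The study's thresholds were used (adjusted p under 0.05, absolute log2 fold change over 0.5), but its test was not named. With them the study reported genes changed in both directions between the injured genotypes. The lack of calls there is thus an outcome of the limma fit used here. Named genes are all members, and of each role up to 4 called genes by adjusted p and up to 2 uncalled genes by mean level in each injury comparison (Adam17, Rhbdf2, Dusp5 and Spry1 were added after their values were seen); for Egf, Hbegf and Egfr also the 5 most correlated genes. Alternatives were a pseudocount of 1, no filter, TPM, limma voom on recovered reads (at least 10 in 2 libraries), a fit without variance trend, a fit to the compared libraries alone, a replicate block and each of the 8 libraries left out. Voom on recovered reads tested 18252 genes. The fit was tested on simulated data. The members and lists were chosen with earlier results of these data known. Tests used 2 pools a group, so residual degrees of freedom were 4.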

Additional observations from a re-analysis of the deposited data

How the results depend on the processing

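Of 592 single-gene values under the alternatives, 543 kept their direction and side of the threshold, 15 lost a call, 14 gained one and 20 changed sign. Part of them could not change sign. The log2 fold change is the same without a variance trend, with the replicate block and in a fit to the compared libraries. It is also the same without a library outside the comparison. The members called in WT kidneys numbered 2, against 1 with no filter (Areg), on the TPM scale (Egf) and without a variance trend (Egf), 3 by voom (Areg, Egf and Erbb3), and 0 to 2 with a library left out. In KO kidneys 4 were called, 6 by voom, 5 on the TPM scale and with no filter, and 3 to 5 with a library left out. Between the injured groups 0 were called, against 2 by voom and 0 to 2 with a library left out, and between the non-injured groups 0, against 0 to 2. The pathway list gave 16 calls in WT kidneys, 10 with no filter and 4 to 21 with a library left out. It gave 31 in KO kidneys (19 to 40 with a library left out, 19 without the second KO-I/R 3D library), 0 between the injured groups (2 by voom, 0 to 2) and 0 between the non-injured groups (0 to 7, the 7 without the second KO-NI library, where 5% of all genes were called higher and 9.31% lower). The share of all genes called changed as well. In WT kidneys 8.9% higher and 8.45% lower became 10.8% and 9.41% by voom. The shares were 9.52% and 3.41% on TPM, and 3.75% and 2.95% with no filter. In KO kidneys 17.9% and 19.4% became 20% and 18.9% by voom. There they were 29% and 8.42% on TPM, and 9.96% and 8.98% with no filter. The shares also changed with a library left out, so the counts do not describe the lists alone. The cause of the differences between settings was not tested.

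Changes of sign concerned members not called in the fit reported. On the TPM scale, Tgfa (0.14) and Erbb2 (0.00197) in WT injury, Erbb4 between the injured groups (0.0227), and Egf (-0.0612) and Egfr (-0.0113) between the non-injured groups changed sign, and with a pseudocount of 1 so did Tgfa between the non-injured groups (0.00205). TPM shifted the median of all genes by 0.18 in WT injury, 0.40 in KO injury, 0.13 between the injured and -0.09 between the non-injured groups. With a library left out, log2 fold changes ranged in WT injury from -0.13 to 0.41 for Hbegf, -0.17 to 0.11 for Tgfa and -0.0343 to 0.0580 for Egfr, and in KO injury from -0.0225 to 0.53 for Tgfa and -0.0300 to 0.33 for Egfr. Between the injured groups the range was -0.25 to 0.0433 for Erbb4. Between the non-injured groups it was -0.15 to 0.20 for Egf, -0.28 to 0.27 for Tgfa, -0.11 to 1.12 for Btc, -0.10 to 0.25 for Egfr and -0.21 to 0.0249 for Erbb3. For the difference of responses it was -0.0419 to 0.31 for Egfr.

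Replicate numbers were not taken to pair the pools. The correlation of same-number deviations was 0.03, 0.17, 0.06 and 0.05 in the 4 comparisons, which cannot exclude a pairing. With the replicate block, 5 members (Btc added, adjusted p = 0.0314 by limma) and 34 pathway genes were called in KO kidneys. Without it these were 4 and 31. With it, 18.7% of all genes were called higher and 20.3% lower there. In WT kidneys 2 members and 16 pathway genes were called, as without it, beside 9.69% and 9.48% of all genes. In the other comparisons 0 were called. The table leaves out the spread between single mice, and the residual degrees of freedom were 4. Between the injured groups, Hbegf and Egf were called under some settings and not under most. In the fit reported, the adjusted p of Hbegf there, 0.0862 by limma, was also the smallest of all genes.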
